A study of Mus musculus with 6 samples.

Results

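The zinc-dependent histone deacetylases were examined in bulk RNA sequencing of the mouse cerebellum, as the family that holds the deacetylases inhibited by butyrate. The 10 genes are *Hdac1*, *Hdac2*, *Hdac3*, *Hdac4*, *Hdac5*, *Hdac6*, *Hdac7*, *Hdac8*, *Hdac9* and *Hdac11*, taken by name from the 31053 genes of the count table, and all 10 had counts. *Hdac10*, the remaining class IIb gene, is given beside them, which makes 11 genes for the sums over the family. WT mice and KIKO mice were compared, with 2 WT libraries and 3 KIKO libraries. KIKO mice are knock-in knock-out mice, whose alleles are in the germline and so in every cell, and are used as a model of an inherited ataxia. WT mice were C57BL/6 littermates per the methods of the study. The labels give the tissue and the genotype, and neither age nor sex. The methods describe cerebellar cells sorted by magnetic beads for CD45 and CD11b from 6-mo-old mice, and the study also profiled microglia of mice fed butyrate. Which of these experiments the libraries belong to, and whether the RNA is of whole cerebellum or of sorted cells, is not settled by the labels. No library of a butyrate-treated mouse was analysed here, so the values give the baseline of these deacetylase genes and hold no response to butyrate.

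Histone deacetylases remove acetyl groups from lysines of histones and of other proteins. Butyrate, a short-chain fatty acid made by gut bacteria, blocks zinc-dependent members of the family at the catalytic pocket, though not all equally. Class I enzymes work mainly in the nucleus within large corepressor complexes. Class IIa enzymes have little activity of their own, bind MEF2 factors and move between nucleus and cytoplasm. Class IIb enzymes act largely in the cytoplasm and are reported as poorly sensitive to butyrate, and Hdac11 is the only class IV enzyme.

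The libraries held between 1013107 and 1351339 counts, and the 11 HDAC genes together between 573 and 739 counts, or between 0.0456% and 0.0595% of a library. Levels are counts scaled to library size by TMM factors (normalized CPM), and 3 counts correspond to a normalized CPM between 2.28 and 3.04, a limit that covers counting error only. The marker lists showed many cell types beside microglia. All 11 microglia markers had counts in all libraries, but so had all 7 granule neuron, all 5 Purkinje neuron, all 7 oligodendrocyte, all 5 endothelial and all 5 choroid plexus markers, and 4 of 6 astrocyte markers. With all libraries, only *Gfap*, of astrocytes, and *Kdr*, an endothelial receptor, passed the thresholds of the study among these markers. Those thresholds, given below, rest on p-values before adjustment. The log2 fold changes were 1.33 (SE 0.55) and -1.47 (SE 0.62). These are 2 of 44 markers tested, where 1.2% of all genes tested passed. No gene passed once the p-values were adjusted. *Xist* had counts in all 5 libraries and 4 Y-linked genes had 0, as in RNA of female mice. The methods name male mice for the butyrate feeding. KIKO replicate 2 stood apart. Its correlation with the others across genes, which are not independent replicates, was between 0.672 and 0.747 on log2 CPM, against 0.884 to 0.931 among the other libraries. Its summed microglia markers reached 11910 normalized CPM, against 4611 to 6726 in the others, and its oligodendrocyte markers 19020 against 4598 to 11930. It also had 840 *Xist* counts against 2234 to 2856. The fold changes of the HDAC genes are therefore also given without this library. In bulk samples, fewer cells of a type and less RNA per cell cannot be told apart.

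The classes differ at a residue of the catalytic pocket, tyrosine in most enzymes and histidine in class IIa. The stretches of 30 coding bases around its codon are shown for genes of both kinds, because the class IIa genes held the largest part of the family's CPM. The sequences come from GENCODE M21 transcripts on GRCm38, read 5′ to 3′ on the coding strand, with the catalytic codon in capitals.
Hdac1: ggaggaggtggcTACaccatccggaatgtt
Hdac2: ggtggaggaggcTACacaatccggaatgtt
Hdac11: acctcgggtgggTACcagaagcgcacagcc
Hdac4: cttgagggaggcCATgacctgacagccatc
Hdac5: ctggagggaggcCATgacttgaccgccatc
Hdac7: ttagagggtggaCATgacctcacggccatc
Hdac9: ctggaaggaggaCATgatctgacagctatt
The codon reads tyrosine in *Hdac1* (residue 303 of 482, exon 9, chr4:129518886-129518915, minus strand), in *Hdac2* (residue 304 of 488, exon 9, chr10:36997045-36997074, plus strand) and in *Hdac11* (residue 304 of 347, exon 10, chr6:91173118-91173147, plus strand). It reads histidine in *Hdac4* (residue 968 of 1076, exon 24, chr1:91945945-91945974, minus strand) and in *Hdac5* (residue 1017 of 1121, exon 26, chr11:102196584-102196613, minus strand). The same holds for *Hdac7* (residue 845 of 953, exon 22, chr15:97796143-97796172, minus strand) and for *Hdac9* (residue 957 of 1067, exon 22, chr12:34107263-34107292, minus strand). *Hdac6* carries 2 catalytic domains, both with tyrosine, at residues 385 and 781 of 1149, and *Hdac8* and *Hdac10* also carry tyrosine, at residue 306 of 377 and residue 305 of 666. The codon of *Hdac3* was not read here. *Hdac1* and *Hdac2* matched at 27 of the 30 bases, and the class IIa genes at 21 to 27 of 30. Despite this likeness, no run of 75 bases, the read length of the study, was shared between any of the HDAC genes.

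*Hdac7* had the highest level of the family in every library, on both scales used. Its mean level over the 5 libraries was 24.2 ± 4.38 normalized CPM per kb of exon (SD), above *Hdac11*, with 17.7 ± 3.03, in 5 of 5 libraries. In WT replicate 1 both genes were nearly level, at 22.27 and 22.26 CPM per kb. *Hdac11* was in turn above *Hdac2*, with 11.5 ± 4.44 CPM per kb, in 5 of 5 libraries. The next genes in the order were *Hdac5* (9.75 ± 2.52), *Hdac10* (8.23 ± 2.37), *Hdac1* (8.17 ± 3.41), *Hdac6* (6.37 ± 2.26) and *Hdac4* (3.69 ± 1.36). From *Hdac2* down to *Hdac4*, each gene exceeded the next in only 2 or 3 of 5 libraries, so their order is not fixed by these data. *Hdac3* (3.43 ± 1.28 CPM per kb) exceeded *Hdac8* (3.27 ± 0.678) in 4 of 5 libraries, and *Hdac9* was the lowest, at 0.386 ± 0.212. Since the methods name a digital mRNA kit whose reads may not cover whole transcripts while the labels name a stranded kit, the order was also read on CPM without length. There *Hdac7* was again first in 5 of 5 libraries, *Hdac5* moved up to the next rank, and *Hdac4*, with 15813 bases of annotated exon, moved from rank 8 to rank 4. Among the 10889 genes tested, *Hdac7* reached the percentile 90.1 of mean CPM, *Hdac5* 78.5, *Hdac11* 72.5 and *Hdac3* 19.0.

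**Figure D1:**
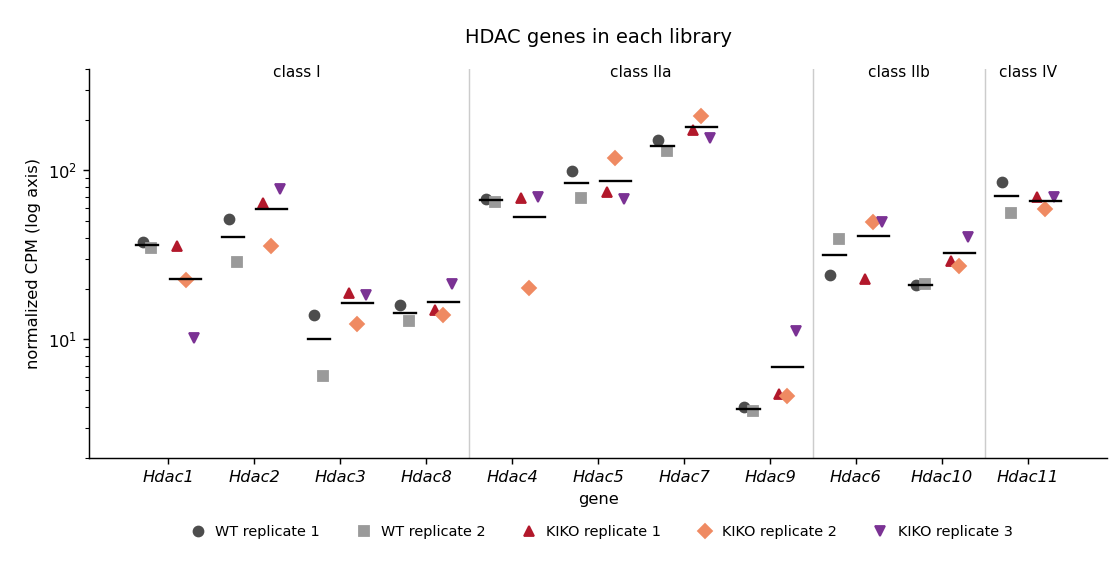
Normalized CPM (log axis) of the 11 HDAC genes in the 2 WT and 3 KIKO libraries, grouped by class, with a short black line at each genotype mean. *Hdac7* is highest in every library, *Hdac9* is lowest in all but KIKO replicate 3, where *Hdac1* is lower, and *Hdac4* in KIKO replicate 2 and *Hdac1* in KIKO replicate 3 lie far below their other libraries.

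The comparison of KIKO with WT asked whether the deacetylases differ between the genotypes. No listed gene passed the test. Of the 9 listed genes with enough counts to be tested, 0 passed the thresholds of the study, which ask for an unadjusted p under 0.05 together with a log2 fold change of more than 0.75 in either direction, where 1.2% of all genes tested passed. At these thresholds 131 of 10889 genes were called. With an adjusted p under 0.05, 0 of the 9 passed, against 0% of all genes, in edgeR's quasi-likelihood test. The adjusted p was 1 for each of them, and for *Hdac10*. At an unadjusted p under 0.05 the count among the 10 tested family genes was also 0, and DESeq2 and limma with trend called 0 of them as well. The fold changes of these 10 genes ranged from -0.67 to 0.73 on the log2 scale, with a median of 0.28 against 0.022 for all genes tested, and 7 of the 10 were positive. The intervals were wide. The narrowest, of *Hdac7*, ran from -0.45 to 1.17 and the widest, of *Hdac3*, from -0.86 to 2.32. With so few libraries and the spread between them, changes of more than the study's threshold could not be told from no change. Without KIKO replicate 2, the fold changes were -0.64 for *Hdac1*, 0.92 for *Hdac3*, 0.32 for *Hdac8*, 0.16 for *Hdac6* and -0.020 for *Hdac11*, and *Hdac2* alone passed the thresholds, 1 of 10 tested family genes, where 6.45% of all genes passed. In the same setting 10 of 44 cell type markers passed, 3 higher and 7 lower in KIKO. The Purkinje markers *Calb1* (1.37) and *Car8* (0.96) were higher, as was *Gfap* (1.17). The choroid plexus markers *Folr1* (-1.43), *Kl* (-1.15) and *Clic6* (-1.004), the oligodendrocyte markers *Mbp* (-1.11) and *Mog* (-0.86), *Itgam* (-0.79) of microglia and *Kdr* (-1.05) were lower. Not every list moved as a whole. Fold changes were positive for 5 of 5 Purkinje, 0 of 5 choroid plexus and 1 of 11 microglia markers tested. The other lists were mixed, with 2 of 7 oligodendrocyte, 3 of 4 astrocyte, 3 of 5 endothelial and 4 of 7 granule neuron markers positive. The part of these cell types in the *Hdac2* difference was not tested. The labels do not state that the libraries came from separate mice, and p-values then measure only the spread between these libraries.

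**Figure D2:**
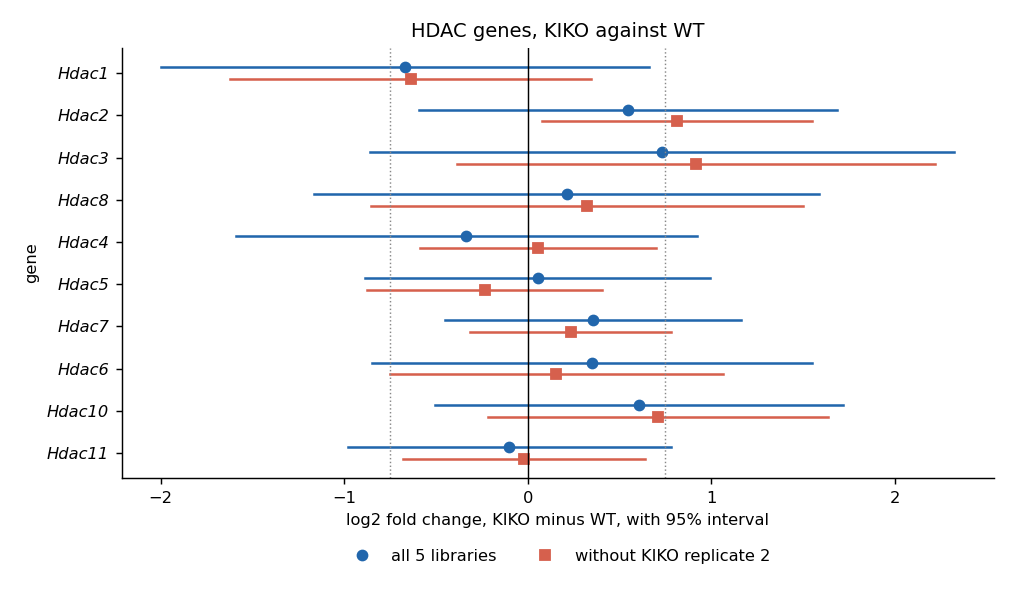
Log2 fold change of KIKO minus WT with its 95% interval for the 10 tested HDAC genes, with all 5 libraries (circles) and without KIKO replicate 2 (squares), and dotted lines at the threshold of 0.75 in either direction. All intervals with 5 libraries include 0, and without KIKO replicate 2 only that of *Hdac2* does not.

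Among the class I genes, *Hdac1* and *Hdac2* encode the paired catalytic subunits of the NuRD, SIN3 and CoREST complexes. Their fold changes had opposite signs, and neither passed the test with all libraries. *Hdac1* (chr4:129516104-129542713) had 37.9 and 34.9 normalized CPM in WT and 35.5, 22.4 and 10.2 in KIKO. KIKO replicate 1 thus lay within the WT values, and KIKO replicate 3 was the lowest. That library had 10 counts. The means were 36.4 ± 2.10 in WT (SD, n = 2) and 22.7 ± 12.7 in KIKO (SD, n = 3). The log2 fold change was -0.67 with an SE of 0.58 (95% interval -2.0 to 0.66). Of its possible 75-base reads, 28.0% also match *Gm10093*, which had 0 counts in 4 libraries and 2 counts in KIKO replicate 3, so its counts are uncertain if such reads were dropped or split.

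*Hdac2* (chr10:36974544-37001889) had 51.8 and 28.8 normalized CPM in WT and 63.9, 35.5 and 77.1 in KIKO. The groups overlapped, since KIKO replicate 2 lay between the WT libraries while the other KIKO libraries were above both. The means were 40.3 ± 16.3 (SD, n = 2) and 58.9 ± 21.2 (SD, n = 3), a log2 fold change of 0.55 with an SE of 0.50 (95% interval -0.59 to 1.69). Without KIKO replicate 2 the difference was 0.81 with an SE of 0.36 (95% interval 0.080 to 1.55), which passed the study's thresholds, with an adjusted p of 0.551 in edgeR's quasi-likelihood test. The ratio of *Hdac2* to *Hdac1* within a library was 1.37 and 0.826 in WT and 1.80, 1.59 and 7.6 in KIKO. All KIKO libraries lay above both WT libraries, and the value of 7.6 belongs to KIKO replicate 3, where *Hdac1* was lowest and *Hdac2* highest. The ratio was not tested, and neither gene separated the groups by itself. Among all genes tested, 16.7% had groups that did not overlap.

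*Hdac3*, the catalytic subunit of the NCoR/SMRT complexes, was among the lowest genes, with 13.95 and 6.07 normalized CPM in WT and 18.9, 12.4 and 18.3 in KIKO. These are 8 to 24 counts, and KIKO replicate 2 lay between the WT libraries. The means of 10.01 ± 5.57 (SD, n = 2) and 16.5 ± 3.61 (SD, n = 3) gave the largest log2 fold change of the listed genes, 0.73 with an SE of 0.70. *Hdac8* (chrX:102284639-102505359), which acts outside these complexes and deacetylates the cohesin ring, had 15.9 and 12.9 normalized CPM in WT and 14.98, 13.9 and 21.3 in KIKO. The WT values lay on both sides of KIKO replicates 1 and 2. Its log2 fold change was 0.21 with an SE of 0.60 (95% interval -1.17 to 1.59).

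Class IIa genes encode signal-dependent corepressors, and 1 library set the *Hdac4* difference. *Hdac4* (chr1:91928779-92195699) had 67.7 and 65.2 normalized CPM in WT and 68.6, 20.1 and 70.0 in KIKO. The other libraries were thus within 65.2 to 70.0, and KIKO replicate 2, with 26 counts, was far below them. The log2 fold change was -0.33 with an SE of 0.55 (95% interval -1.59 to 0.93) and became 0.055 with an SE of 0.32 without this library (95% interval -0.59 to 0.70). Of the annotated exon bases of *Hdac4*, 22.4% are overlapped by *Gm26720* on the opposite strand, which had at most 1 count.

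*Hdac5* (chr11:102194432-102230166) was high rather than low in KIKO replicate 2. It had 98.6 and 69.0 normalized CPM in WT and 74.1, 118.2 and 68.0 in KIKO, and KIKO replicate 2 was the highest library. Its log2 fold change was 0.054 with an SE of 0.41 (95% interval -0.89 to 0.995), and -0.23 with an SE of 0.31 without that library. Leaving out WT replicate 2 also turned its sign, to -0.20. The ratio of *Hdac5* to *Hdac4* was 1.46 and 1.06 in WT and 1.08, 5.89 and 0.971 in KIKO. In 4 libraries it was therefore between 0.971 and 1.46, and the value of 5.89 belongs to KIKO replicate 2. This is also the library with the highest sums of microglia, oligodendrocyte, astrocyte and choroid plexus markers and the lowest sum of granule neuron markers. Its astrocyte sum was only slightly above that of WT replicate 2, 357.8 against 344.3. Single markers went against the sums. *Aqp4* of astrocytes was lowest in this library, at 13.1, and *Cbln1* of granule neurons had 316.8 against 182.0 to 318.8 in the others. The part of these cell types in the low *Hdac4* and high *Hdac5* values was not tested.

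*Hdac7* (chr15:97792664-97844502), known for its role in blood vessel endothelium and in lymphocytes, was the gene with the most counts, 151 to 270 in a library. It had 150.4 and 129.7 normalized CPM in WT and 173.5, 208.6 and 156.3 in KIKO. The groups did not overlap, KIKO being the higher. The same was true of 16.7% of all genes tested, and of 1 of the 9 tested genes of the list. The means were 140.1 ± 14.7 (SD, n = 2) and 179.5 ± 26.7 (SD, n = 3). The log2 fold change of 0.36, with an SE of 0.35, did not pass the test (95% interval -0.45 to 1.17) and was 0.23 without KIKO replicate 2. Endothelial markers summed to 372.5 and 665.9 normalized CPM in WT and 345.4, 593.5 and 422.1 in KIKO, so their sum did not separate the genotypes. *Kdr* had 70.7 and 49.3 in WT and 27.6, 6.96 and 30.4 in KIKO, lower in all KIKO libraries. The other endothelial markers were mixed and did not pass the thresholds. Their log2 fold changes were 0.77 for *Slco1a4*, 0.36 for *Cldn5*, -0.045 for *Pecam1* and -0.43 for *Flt1*. The highest *Hdac7* value fell in KIKO replicate 2. That library had the highest sums of microglia, oligodendrocyte, astrocyte and choroid plexus markers and the lowest sum of granule neuron markers. As given for *Hdac5*, single astrocyte and granule neuron markers went against these sums. The part of these cell types, or of endothelial cells, in the *Hdac7* values was not tested. The ratio of *Hdac7* to *Hdac4* was between 1.99 and 2.53 in 4 libraries and 10.4 in KIKO replicate 2.

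*Hdac9* (chr12:34047580-34917095) was close to the counting limit, with 4 and 5 counts in WT and 6, 6 and 11 counts in KIKO, and was not tested. Its levels of 3.98 and 3.79 normalized CPM in WT and 4.73, 4.64 and 11.2 in KIKO did not overlap. At so few counts no difference is read from these values.

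**Figure D3:**
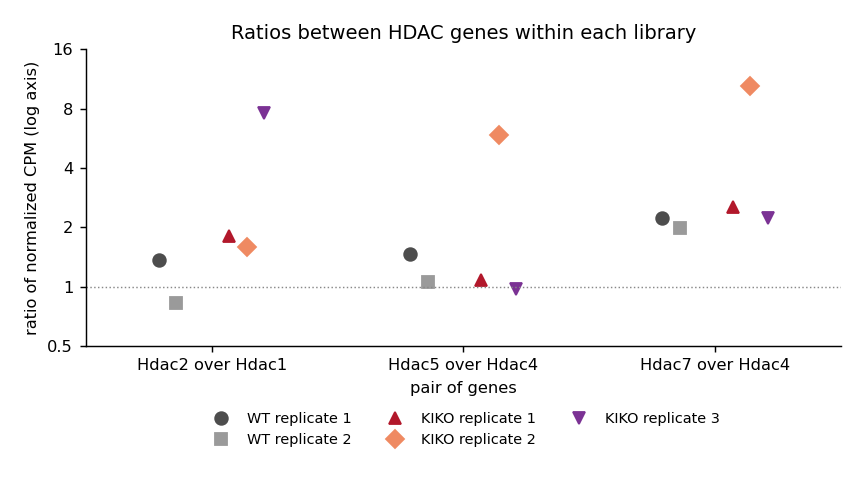
Ratio of normalized CPM (log axis) between pairs of HDAC genes within each library, with a dotted line at equal levels. KIKO replicate 3 stands out for *Hdac2* over *Hdac1* at 7.6, and KIKO replicate 2 for *Hdac5* over *Hdac4* at 5.89 and *Hdac7* over *Hdac4* at 10.4.

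The class IIb genes did not pass the test either. *Hdac6* (chrX:7930120-7947889), the cytoplasmic deacetylase of tubulin, had 23.9 and 39.4 normalized CPM in WT and 22.9, 49.4 and 49.7 in KIKO. KIKO replicate 1 was the lowest library and KIKO replicates 2 and 3 the highest, so the groups overlapped. Its log2 fold change was 0.35 with an SE of 0.52 (95% interval -0.85 to 1.55). *Hdac10* (chr15:89123307-89128700), a polyamine deacetylase, had 20.9 and 21.2 normalized CPM in WT and 29.2, 27.1 and 40.6 in KIKO. All KIKO libraries were above both WT libraries, with means of 21.1 ± 0.225 (SD, n = 2) and 32.3 ± 7.28 (SD, n = 3). Groups without overlap were found for 2 of the 10 tested family genes, and for 16.7% of all genes tested. The log2 fold change of 0.61, with an SE of 0.49, did not pass the test (95% interval -0.50 to 1.72), and was 0.71 without KIKO replicate 2 (95% interval -0.21 to 1.64).

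*Hdac11* (chr6:91156665-91174692), the class IV enzyme, which also removes fatty acyl groups, varied least. It had 85.7 and 56.1 normalized CPM in WT and 69.4, 58.7 and 70.0 in KIKO. All KIKO values fell between the WT values, and the highest library exceeded the lowest by 1.53 times, the smallest such ratio of the 11 genes, against 3.73 times for *Hdac1*. The log2 fold change was -0.10 with an SE of 0.39 (95% interval -0.98 to 0.78). *Gm44002*, which overlaps *Hdac11* on the opposite strand and has no values here, shares 13.3% of its 75-base runs.

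The 11 genes summed to 570.8 and 467.2 normalized CPM in WT and 575.7, 571.1 and 592.6 in KIKO. All KIKO sums were above both WT sums, although WT replicate 1 nearly reached the lowest KIKO sum, and WT replicate 2 was the lowest. The class IIa genes held 56.5% of the family's CPM on average over libraries (51.5% to 61.6%), class I 19.6% (14.8% to 23.2%), class IV 12.2% (10.3% to 15.01%) and class IIb 11.7% (7.85% to 15.2%). *Hdac7* alone held 29.4% (26.4% to 36.5%). Without KIKO replicate 2, class IIa held 55.2% and class I 20.8%. Per kb of exon, class IIa held 39.4% (34.7% to 46.8%), class I 27.2% (20.8% to 31.8%), class IV 18.3% (15.6% to 22.3%) and class IIb 15.1% (10.3% to 19.8%). Class IIa was the largest class in all 5 libraries on both scales. The class I sum was 119.5 and 82.7 normalized CPM in WT and 133.3, 84.2 and 126.8 in KIKO. KIKO replicate 2 was again near the lower WT value, and the groups overlapped. No test was made of these sums, for which 2 against 3 libraries allow no p below 0.1 in an exact permutation test.

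**Figure D4:**
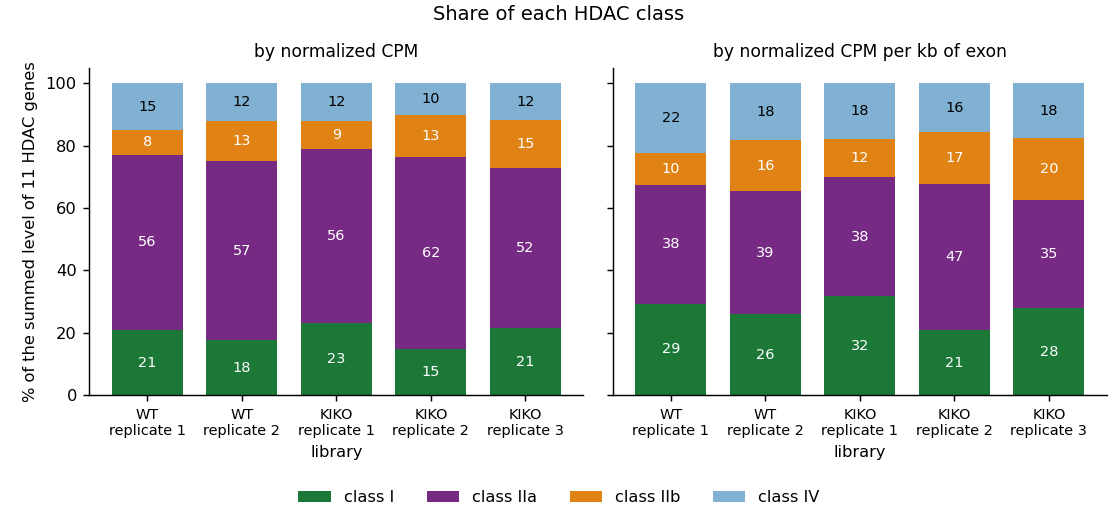
Share of each HDAC class in the summed level of 11 HDAC genes in each library, as a percentage of normalized CPM (left) and of normalized CPM per kb of exon (right). Class IIa is the largest class in every library, from 51.5% to 61.6% by CPM and from 34.7% to 46.8% per kb.

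The proteins that work with the deacetylases, or against them, were read in 9 lists of 84 genes, of which 73 could be tested. Of these, 0 passed the thresholds in either direction, where 1.2% of all genes tested passed. At that share a count of 0 in lists this short says little about the partners. In edgeR 0 had an unadjusted p under 0.05, and 0 were called by DESeq2. Of the 73 fold changes, 33 were positive, with a median of -0.016. Without KIKO replicate 2, 1 of 71 passed, against 6.45% of all genes. It was *Rcor3*, a CoREST corepressor, with a fold change of 0.80. For *Hdac1* and *Hdac2*, the complexes showed medians of -0.009 over 11 tested NuRD subunits, 0.036 over 11 SIN3 subunits and -0.080 over 11 CoREST and MiDAC subunits. The named genes of each list are those with the highest mean CPM. *Chd4*, the remodelling ATPase of NuRD, had a log2 fold change of -0.23 with an SE of 0.40, and *Phf21a*, a histone reader of CoREST, -0.055 with an SE of 0.36. *Arid4b* and *Arid4a*, DNA-binding subunits of SIN3, had 384.5 to 549.9 and 277.6 to 427.3 normalized CPM in 4 libraries, and 43.3 and 41.7 in KIKO replicate 2. They were low in the library in which *Hdac4* was low, and without it their fold changes were -0.074 and -0.13.

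For *Hdac3*, 5 of 5 NCoR/SMRT genes were tested, with 0 past the thresholds and a median of -0.24. The share of all genes tested, 1.2%, stands beside this count and those of the lists that follow. *Ncor1*, the scaffold of that complex, had 1163 and 828 normalized CPM in WT and 977, 542 and 1004 in KIKO, so the groups overlapped and KIKO replicate 2 was the lowest. The partners of class IIa enzymes, MEF2 factors, 14-3-3 proteins and the kinases that export these enzymes from the nucleus, had 0 of 13 tested genes past the thresholds and a median of 0.18, which was -0.15 without KIKO replicate 2. *Ywhae*, a 14-3-3 gene, had 862 normalized CPM in KIKO replicate 2 against 255 to 388 in the others. Among the enzymes that write acetylation, 0 of 10 acetyltransferases passed, with a median of 0.15. *Crebbp*, a general coactivator, had a log2 fold change of -0.23 with an SE of 0.40, and *Ep300*, its paralog, -0.18 with an SE of 0.45. *Brd2*, an acetyl-lysine reader, had a fold change of -0.35 with an SE of 0.37, and 0 of 3 genes of the reader list passed. The sirtuins, NAD-dependent deacetylases that butyrate does not inhibit, had 0 of 6 tested genes past the thresholds and a median of -0.070. *Sirt2*, the main cytoplasmic sirtuin, had a fold change of -0.30 with an SE of 0.39, and *Sirt7*, the nucleolar one, 0.61 with an SE of 0.37.

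**Figure D5:**
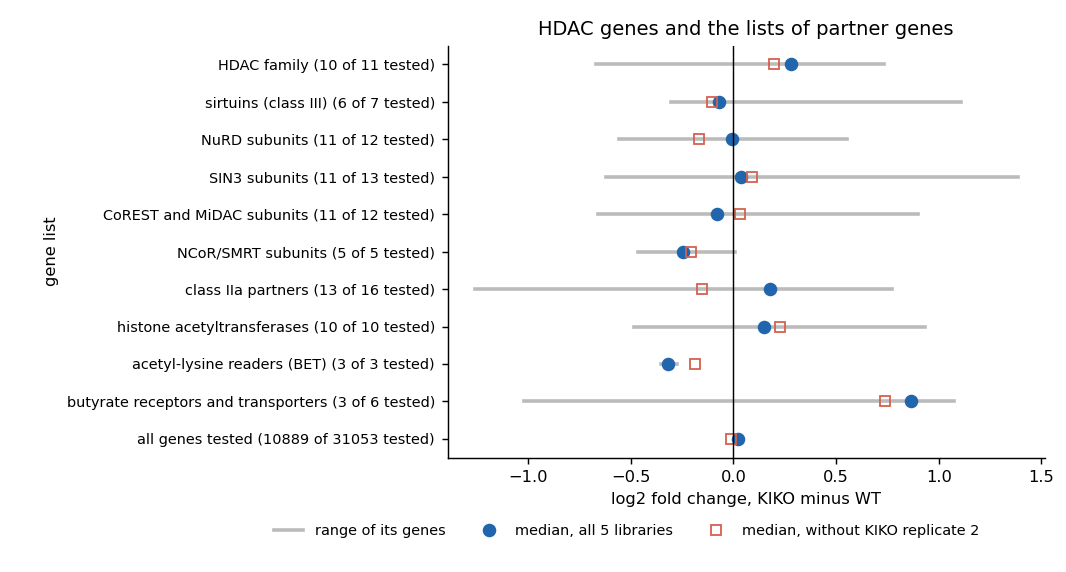
Median log2 fold change of KIKO minus WT for the HDAC genes, each list of partner genes and all genes, with all 5 libraries (filled circles) and without KIKO replicate 2 (open squares), and the range over the tested genes of each list with all libraries (grey lines). Counts of tested genes are for all libraries, and medians of the lists lie between -0.32 and 0.86. With all libraries no gene of a list passed the thresholds, where 1.2% of all genes tested passed.

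Butyrate reaches cells through transporters and also signals through surface receptors, and these genes were scarce. *Hcar2*, a receptor for butyrate found on microglia and macrophages, had 4.98 and 7.59 normalized CPM in WT and 15.8, 12.4 and 12.2 in KIKO. The KIKO values were all above the WT values, but the log2 fold change of 1.08, with an SE of 0.74, did not pass the test and was 1.12 without KIKO replicate 2. *Slc16a1*, which encodes the monocarboxylate transporter MCT1, had 8.97 and 12.1 normalized CPM in WT and 21.3, 22.4 and 14.2 in KIKO, also without overlap, with a log2 fold change of 0.86 and an SE of 0.62, and 0.74 without KIKO replicate 2. *Slc16a3*, which encodes the lactate exporter MCT4, was lower in all KIKO libraries, with 10.96 and 13.7 normalized CPM in WT and 8.68, 6.18 and 3.04 in KIKO, and a log2 fold change of -1.02 with an SE of 0.81, and -1.03 without KIKO replicate 2. Of the 6 genes of this list, 3 could be tested and 0 passed the thresholds, where 1.2% of all genes tested passed. The groups did not overlap for any of the 3, where this held for 16.7% of all genes. Over the 9 lists it held for 12 of 73 tested genes, and for 0 of 10 acetyltransferases. The 3 genes had only 3 to 29 counts in a library. *Ffar3* and *Slc5a8* had 0 counts in all libraries, which allows up to 3.04 normalized CPM in the shallowest.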

How the data were processed

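RNA of WT and KIKO mice was sequenced, from cerebellum per the labels and from sorted cerebellar cells per the methods. Per the labels and methods, the authors used Trimmomatic for trimming and HISAT2 for alignment (mm10), and deposited whole-number counts per gene from featureCounts. The annotation, strand setting and handling of multi-mapping reads are not given in the sources used here. The authors also deposited log2 values, log2(count / DESeq2 size factor + 1), used only as an alternative. The labels name a Qiagen lipid tissue kit and an Illumina stranded kit, and the methods other kits.

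Columns were matched to samples by title. A WT replicate 3 was not analysed here, and 2 columns per table, named for KIKO with butyrate, match no label and were not used. Names, coordinates and exon lengths came from GENCODE M21 (GRCm38). The tests used edgeR 4.0.16 in R 4.3.3, with filterByExpr (minimum count 10, minimum total 15), TMM, and the two-sided quasi-likelihood test with Benjamini-Hochberg adjustment over all 10889 genes tested. The fit was tested on simulated data. Alternatives were DESeq2 1.42.0, RLE factors, library size alone, other filters, leaving out each library, the replicate block, and limma 3.58.1 with trend or with voom quality weights.

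The genes and lists were chosen with earlier results of these data known. Of each partner list, members past the thresholds or else the 2 with the highest mean CPM are named. No gene of like pattern was searched for. Some results are not reported here.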

Additional observations from a re-analysis of the deposited data

How the results depend on the processing

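Across 13 alternatives, *Hdac1*, *Hdac2*, *Hdac6*, *Hdac7*, *Hdac8* and *Hdac10* kept the sign of their fold change, as did *Hdac3* in the 12 that could test it. Their sizes were less stable. When a library was left out, *Hdac2* ranged from 0.17 without WT replicate 2 to 1.02 without WT replicate 1, and *Hdac3* from 0.23 to 1.42 without the same libraries. *Hdac1* ranged from -1.14 without KIKO replicate 1 to -0.33 without KIKO replicate 3, *Hdac6* from 0.031 without WT replicate 1 to 0.75 without WT replicate 2, and *Hdac8* from 0.006 without KIKO replicate 3 to 0.36 without WT replicate 1. *Hdac7* ranged from 0.23 without KIKO replicate 2 to 0.46 without WT replicate 1 and *Hdac10* from 0.41 without KIKO replicate 3 to 0.71 without KIKO replicate 2. When a library was left out, *Hdac4* ranged from -0.58 to 0.055, positive without KIKO replicate 2. *Hdac5* ranged from -0.23 to 0.32, negative without WT replicate 2 (-0.20) and without KIKO replicate 2 (-0.23). *Hdac11* ranged from -0.39 to 0.23, positive without WT replicate 1. With voom sample quality weights, *Hdac5* was -0.16 and *Hdac11* 0.017. The count of HDAC genes past the thresholds was 0 with all libraries and 0 to 1 when a library was left out. It was 1 without KIKO replicate 2 and 1 with the weights, in both cases *Hdac2*, with a fold change of 0.83 under the weights, of which KIKO replicate 2 had 0.163 and the others 1.19 to 2.28. For all genes the count of 131 became 383 with every gene of at least 1 count, 519 with the weights, and 56 to 669 when a library was left out, 56 without WT replicate 1 and 669 without KIKO replicate 2. The partner genes past the thresholds numbered 0, and 0 to 1 when a library was left out, with *Rcor3* called without KIKO replicate 2, and 2 with the weights (*Mta1*, *Rcor3*). The *Hdac7* share of the family was 25.1% per kb against 29.4%. The cause of these differences was not tested.

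The replicate numbers come from the labels and nothing else pairs the mice. Libraries of the same number correlated at 0.180 and 0.239 in their deviations from the genotype means, and KIKO replicate 3, which has no partner, at 0.218 with WT replicate 1. With 2 WT libraries these deviations mirror each other, so each value recurs with opposite sign for the other WT library. The check therefore cannot decide whether libraries are paired. With the replicate block, 0 HDAC genes passed, 4 partner genes did (*Arid4a*, *Arid4b*, *Ing1*, *Sik2*), and 271 of all genes. This model leaves 1 residual degree of freedom.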
